A study of Mus musculus with 2 samples.

Results

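The genes described here are 568 non-coding RNA genes that the annotation defines by their position relative to another gene. They comprise 201 bidirectional-promoter RNAs, which start beside the start of another gene and run away from it, 333 sense-intronic RNAs, which lie inside an intron of a host gene on the same strand, and 34 sense-overlapping RNAs, which contain or overlap another gene on the same strand. Members were taken from the transcript biotypes in the deposited tables: of 582 genes with a transcript of 1 of these 3 biotypes, 14 were left out because they also had a protein-coding, lincRNA or antisense transcript. No gene was left out for a symbol of a small RNA host gene. The annotation held 55536 genes in all, and 546 of the 568 members had transcripts of the 3 biotypes only.

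RNA depleted of ribosomal RNA was sequenced from the nucleoplasm of bone marrow-derived macrophages, phagocytes grown in culture from the bone marrow of C57BL/6J mice. Both libraries came from cells given 100 ng/ml lipid A for 12 h, kept without it for 12 h after a wash, and given 100 ng/ml lipid A again for 90 min. Lipid A is the part of bacterial lipopolysaccharide that the receptor TLR4 recognises. Replicate 1 started from 1 µg of RNA and replicate 2 from 500 ng, and the labels give a size range of 250 to 400 for both. They form 1 group of 2 replicates with the same donor entry, so the spread between them may be technical, and no untreated or cytoplasmic library was analysed here. Values are therefore levels in 1 condition, and no p-value was computed.

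Active mammalian promoters commonly fire in both directions: RNA polymerase II starts at separate core promoters that share an open stretch of DNA, and the upstream product is often ended early and degraded by the nuclear exosome. Recognition of 5′ splice sites by the U1 snRNP favours elongation in the direction of the gene, while early poly(A) signals followed by exosome decay limit the other direction. RNA annotated inside introns can be an independent transcript, a piece of the host's unspliced precursor or a stable part of an excised intron, and short-read counts over a single-exon model hold reads of all of these.

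The 4 windows below are a selection from those of the named bidirectional members, and windows of other named members are not shown. Each is the RefSeq promoter window (GRCm38.p6) of the neighbouring protein-coding gene, read 5′ to 3′ on that gene's strand, from 250 bases before its RefSeq start to 50 bases from the start onward, and capitals mark the bases covered by an exon of the non-coding member on the other strand, over all of the member's transcripts. In the first, A930037H05Rik leaves leftward from beside Endov, in the second AC114539.1 from beside Nfkb2, in the third Gm16675 from beside Irf2 and in the fourth Gm45418 from beside Ddx60.
Endov start, chr11:119491097-119491396, + strand: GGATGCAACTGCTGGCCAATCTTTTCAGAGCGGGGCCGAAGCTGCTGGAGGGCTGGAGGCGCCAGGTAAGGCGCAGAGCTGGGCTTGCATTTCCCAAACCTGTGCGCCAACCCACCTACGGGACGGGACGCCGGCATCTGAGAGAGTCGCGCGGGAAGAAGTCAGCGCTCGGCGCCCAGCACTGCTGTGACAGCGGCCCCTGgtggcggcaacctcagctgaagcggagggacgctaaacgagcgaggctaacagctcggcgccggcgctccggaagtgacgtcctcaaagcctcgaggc
Nfkb2 start, chr19:46305445-46305744, + strand: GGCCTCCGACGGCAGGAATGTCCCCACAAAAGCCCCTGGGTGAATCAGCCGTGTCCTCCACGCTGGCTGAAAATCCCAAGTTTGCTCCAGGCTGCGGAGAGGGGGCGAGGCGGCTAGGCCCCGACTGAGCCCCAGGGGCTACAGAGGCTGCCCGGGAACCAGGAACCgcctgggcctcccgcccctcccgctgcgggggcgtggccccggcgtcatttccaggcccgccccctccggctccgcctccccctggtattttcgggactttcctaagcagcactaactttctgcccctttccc
Irf2 start, chr8:46739495-46739794, + strand: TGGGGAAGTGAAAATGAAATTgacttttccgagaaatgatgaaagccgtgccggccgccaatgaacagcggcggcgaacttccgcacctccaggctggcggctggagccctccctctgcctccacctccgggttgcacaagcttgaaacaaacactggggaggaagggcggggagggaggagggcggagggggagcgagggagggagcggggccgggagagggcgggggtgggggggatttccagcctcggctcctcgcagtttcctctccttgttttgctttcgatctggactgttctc
Ddx60 start, chr8:61927837-61928136, + strand: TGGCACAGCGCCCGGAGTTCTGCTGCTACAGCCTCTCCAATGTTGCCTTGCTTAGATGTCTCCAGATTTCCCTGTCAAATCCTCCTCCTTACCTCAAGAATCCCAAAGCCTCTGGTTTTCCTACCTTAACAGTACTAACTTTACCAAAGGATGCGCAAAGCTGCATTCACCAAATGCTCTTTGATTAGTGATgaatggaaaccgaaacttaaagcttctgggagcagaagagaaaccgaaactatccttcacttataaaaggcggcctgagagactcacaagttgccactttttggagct

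Positions in these windows are counted from the neighbour's RefSeq start as 0, with bases before it negative. The Nfkb2 window holds a match to the NF-kB motif at 10 to 19, downstream of that start and outside the exon of AC114539.1, and a match to the AP-1 motif TGANTCA at -210 to -204, within the exon. In the Irf2 window an NF-kB match lies at -17 to -8, and a match to the interferon-stimulated response element lies at -241 to -232, in the short stretch where Gm16675 begins. The Ddx60 window holds 2 matches to that response element, at -53 to -44 and -19 to -10, and a TATAAA at 3 to 8, all outside the exon of Gm45418. The Endov window holds 1 ETS match, CCGGAAGT, at 20 to 27. These are matches of letters, searched on both strands, and binding was not measured.

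A RefSeq window was found for 132 of the 197 bidirectional members with a neighbour start within 1 kb, and a member exon reached into 118 of these. Very short covered stretches were not checked, as for Gm26708 (4 bases) and AC144797.2 (3 bases). B230354K17Rik and Gm32031 had 2 checked stretches each. Of the 118 stretches checked, 117 were found letter for letter in 1 of the member's own annotated transcripts. The exception was the Endov window, where the covered stretch joins exons of several A930037H05Rik transcripts. The neighbours' windows were rich in G and C, with a median of 65.8% GC and 26.5 CpG dinucleotides per window, against 57% and 14 for windows of all protein-coding symbols and 52.7% and 7 for all 32851 windows. An ETS match was present in 14.4% of the neighbours' windows and 3.89% of all windows. The SP1 motif GGGGCGGGG was present in 22% and 11.4%, and the CRE TGACGTCA in 3.03% and 1.79%. For TATAAA the shares were 6.82% and 13.6%, and for the PU.1 motif GAGGAAGT 0.758% and 3.2%. The shares were 1.52% and 1.63% for NF-kB matches, 2.27% and 3.44% for response-element matches and 5.3% and 7.81% for AP-1 matches, and the Nfkb2 and Irf2 windows were the only 2 of the 132 with an NF-kB match. Over the 43 neighbours' windows whose member had a mean count of at least 10, NF-kB, response-element, AP-1 and CRE matches were found in 4.65% each, which is 2 windows each. In the same windows the shares were 18.6% for ETS, 14% for SP1, 6.98% for TATAAA and 0% for PU.1 matches. None of these differences in share was tested. Motif shares were not taken over windows of protein-coding symbols alone, and the unlike GC and CpG content of the sets was not accounted for. These 2 motifs of NF-kB and the response element were searched in consensus form with a pair of free bases in the middle. A window was counted once per motif however many matches it held. The PU.1 and ETS motifs share the ending GGAAGT but cannot match at the same place.

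Detection differed between the 3 classes (plot of detected genes by class). A member was called detected at 1 TPM or more in both libraries, where TPM is a read level divided by effective length and scaled to the same total in every library. By this rule 30 of 201 bidirectional members (14.9%), 76 of 333 sense-intronic members (22.8%) and 2 of 34 sense-overlapping members (5.88%) were detected, 108 of 568 in all (19%). Over all 55536 genes the share was 18.6%, close to that of the members together. The shares were 3.14% of 5854 lincRNA genes, 10.1% of 2959 antisense genes, 17% of 3219 genes of the provisional class TEC and 38.6% of 22028 protein-coding genes. No count at all was assigned in either library to 73 bidirectional members (36.3%), 114 sense-intronic members (34.2%) and 21 sense-overlapping members (61.8%). The same held for 59.5% of all genes, 34.1% of protein-coding genes and 78.3% of lincRNA genes. With a count of 0 read as no more than 3, levels of up to 0.102 CPM (replicate 1) and 0.169 CPM (replicate 2) could be missed, CPM being a count scaled by the library total. These bounds hold for reads as the first quantification assigned them, and a count of 0 is not absence of RNA. Of the members with no count, 57 had at least 10 counts in both libraries of the second quantification. Genes other than protein-coding and long non-coding ones held 75.3% of all TPM in replicate 1 and 66% in replicate 2. With TPM rescaled without them, 52 bidirectional, 131 sense-intronic and 7 sense-overlapping members reached 1 TPM. The rescaling raises the TPM of every protein-coding and long non-coding gene. The share of other genes at this rescaled threshold is not given here, so the rise is not particular to members.

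**Figure D1:**
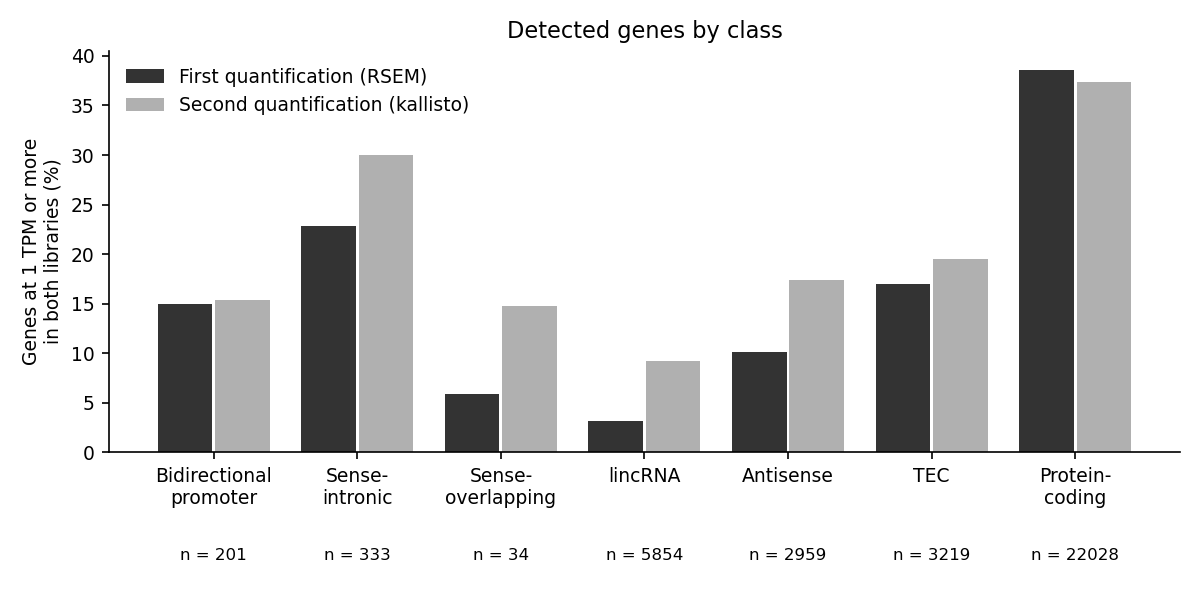
Share of genes at 1 TPM or more in both libraries, in percent, for the 3 member classes and 4 other gene classes, with the number of genes under each. Dark bars are the first quantification and light bars the second; the sense-intronic share is 22.8% in the first and 30% in the second, and the lincRNA share 3.14% and 9.17%.

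Members made up 0.144% of the gene counts of replicate 1 and 0.206% of those of replicate 2. Over all members the median was 0.065 TPM and 0.095 TPM, in that order. Sense-intronic members had a median of 0.09 and 0.24 TPM, bidirectional members of 0.05 TPM in both libraries and sense-overlapping members of 0 in both. Bidirectional counts were concentrated: 75.8% of them belonged to 5 genes. For sense-intronic members the 5 largest held 25.2%. In bulk RNA, fewer cells making a transcript and less of it per cell cannot be told apart.

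Among bidirectional members, A930037H05Rik (chr11:119448788-119491298, minus strand) had the highest level, 48.29 TPM and 58.19 TPM in replicates 1 and 2. It starts 49 bases from Endov, which encodes an endonuclease acting on inosine in RNA and which had 1.87 and 2.13 TPM. The non-coding member was thus far above its neighbour in both libraries. By the second quantification it had 20.3 and 36.2 TPM, lower but with the same order of the libraries. Its body lies opposite Rnf213, a large E3 ubiquitin ligase at 431 and 307 TPM, and 16.3% of its exonic bases overlap exons of the other strand. Whether the authors counted by strand is not given in the sources used here, and the part of Rnf213 reads in this level was not tested.

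4632427E13Rik (chr7:92734166-92741468) starts 135 bases from Rab30, a Golgi small GTPase. The exons of all its transcripts merge into a single stretch of 7303 bases. It had 13.13 and 20.88 TPM, from 3065 and 2718 counts. Rab30 itself had 0.07 and 0.15 TPM, from 14 and 8 counts. The transcript and its neighbour were therefore at opposite ends of the range, and no exon of another gene overlaps this member on either strand.

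AC114539.1 (chr19) is the partner of Nfkb2, which encodes the NF-kB precursor p100. It had 14.65 and 11.49 TPM, beside 55.24 and 35.05 TPM for Nfkb2. Both were lower in replicate 2: the log2 ratio, replicate 2 to replicate 1, was -0.67 for the member (95% counting interval -0.83 to -0.51) and -0.94 for Nfkb2. Exons of the other strand cover 30.1% of its exonic bases.

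Gm45418 is the partner of Ddx60, an interferon-induced helicase-like protein. The member had 5.29 and 4.93 TPM and Ddx60 had 88.34 and 46.18 TPM. In the first quantification the pair did not move alike, since the member's log2 ratio was -0.09 (-0.60 to 0.42) and that of Ddx60 was -1.27. By the second quantification the member's ratio was -0.62, outside that interval and lower in replicate 2, so the contrast depends on the quantification. Exons of the other strand overlap 50.1% of the member.

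Gm16675 is the partner of Irf2, a transcription factor that binds interferon response elements. Its TPM was 3.22 and 1.76, from 184 and 52 counts, and that of Irf2 was 22.38 and 18.64. The member's log2 ratio was -1.26 (-1.74 to -0.81), lower than the -0.22 of Irf2. No exon of another gene overlaps it.

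The remaining bidirectional members of high level lay beside genes of varied function. The start of E230013L22Rik lies at -781 bases from that of the small GTPase gene Rab20, negative because the 2 overlap on opposite strands. E230013L22Rik had 11.63 and 7.72 TPM, beside 25.71 and 27.81 TPM for Rab20. Ndufb1-ps had 8.76 and 6.97 TPM, above its neighbour Cpsf2, a subunit of the cleavage and polyadenylation complex, at 4.93 and 4.34 TPM. F730043M19Rik, beside Atxn7l1, had 7.66 and 7.85 TPM. All 3 were lower in replicate 2 on the count scale, with log2 ratios of -0.95 (-1.14 to -0.77), -0.80 (-1.17 to -0.45) and -0.28 (-0.46 to -0.11) in that order. Gm47126 had 6.67 TPM in replicate 1 and 0 in replicate 2, from 21 and 0 counts. The second quantification gave it 0.607 TPM and 0. It was present in 1 library only, is annotated over 269 exonic bases of which 97.8% lie opposite exons of another gene, and has no divergent neighbour within 1 kb.

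Lower in the range, Cep83os, the divergent partner of the centriolar gene Cep83, had 0.38 and 0.85 TPM. Gm48226, beside Gphn, which encodes the scaffold protein gephyrin, had 3.26 and 3.15 TPM. 6330408M09Rik had 0.99 and 0.98 TPM and stood above Rfc4, a clamp-loader subunit of DNA replication, at 0.28 and 0.47 TPM. Gm17251, which overlaps the vesicle-trafficking gene Rab11b on the other strand at its 5′ end, had 2.31 and 0.82 TPM. Its log2 ratio of -1.81 (-2.74 to -1.03) was the lowest of the named bidirectional members found in both libraries. By the second quantification the ratio of Gm17251 was -0.57.

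**Figure D2:**
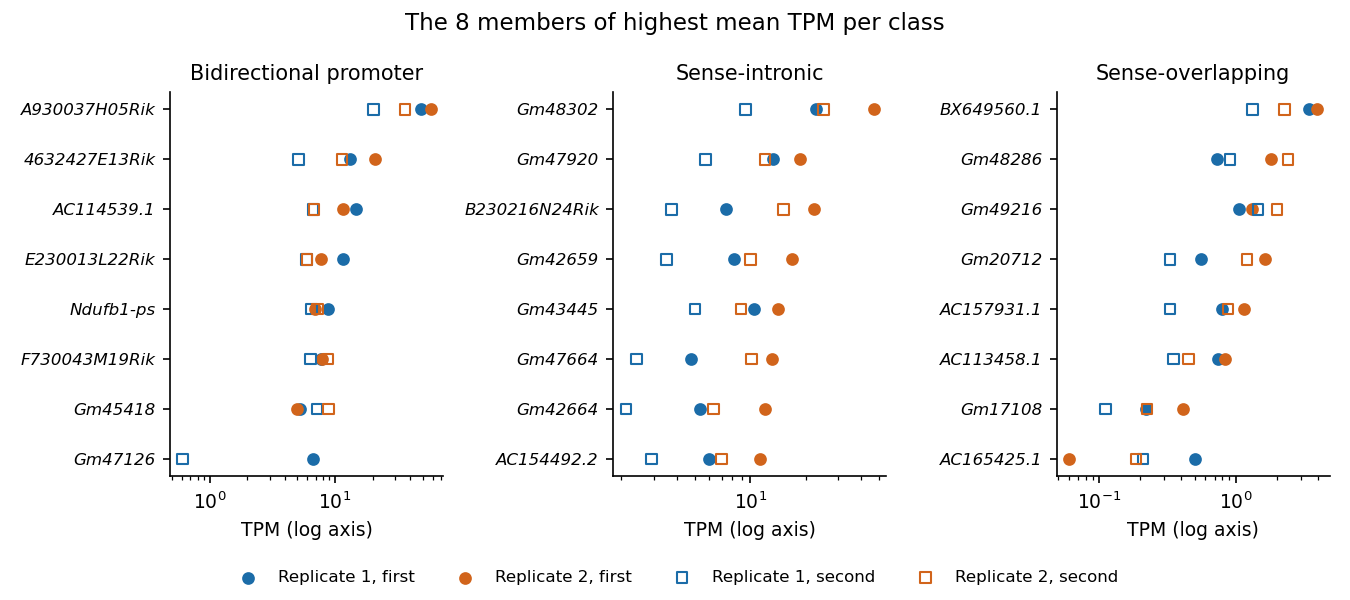
TPM on a log axis of the 8 members of highest mean TPM in each class among those with a mean count of at least 10. Filled circles are the first quantification and open squares the second, blue for replicate 1 and orange for replicate 2; values of 0 are not drawn, as for Gm47126 in replicate 2. Orange circles lie to the right of blue ones for all 8 sense-intronic members, on a scale that is not corrected by TMM.

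Sense-intronic members of high level lay in genes that macrophages express. Gm48302, inside Ell2, an elongation factor for RNA polymerase II, had the highest level of the class at 22.64 and 46.88 TPM, beside 69.38 and 91.33 TPM for Ell2. The second quantification gave it 9.45 and 24.9 TPM. Gm47920, in the transcriptional coactivator gene Zmiz1, had 13.27 and 18.61 TPM. B230216N24Rik, in the peptide-amidating enzyme gene Pam, had 7.36 and 22.08 TPM. TPM ran higher in replicate 2 for protein-coding genes too, summing to 204010 and 303496, so the TMM-scaled log2 ratios are given beside it. By these Gm48302 (0.69) and B230216N24Rik (1.39) were higher in replicate 2, while the ratio of Gm47920 was 0.13 with an interval that includes 0 (-0.02 to 0.29). B230216N24Rik about equalled its host, which had 8.43 and 19.80 TPM.

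Gm42659 (8.21 and 16.75 TPM) lies in Capza1, which encodes an actin-capping subunit. Gm43445 (10.43 and 14.17 TPM) lies in the transcription cofactor gene Lmo4. Gm47664 (4.78 and 13.16 TPM) lies in Elmo1, a regulator of Rac in engulfment and migration. Gm42664 (5.34 and 12.06 TPM) lies in the splicing regulator gene Ptbp2, and AC154492.2 (6.02 and 11.36 TPM) in the small GTPase gene Rhoq. Each of these was below its host in mean TPM, at 22.1% of the host for Gm43445 and up to 93.7% for AC154492.2.

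Among members with names of their own, Peg13, a paternally expressed imprinted RNA in an intron of Trappc9, had 1.70 and 3.25 TPM. Ppnr, in the Wnt effector gene Tcf7l2, had 1.49 and 3.28 TPM, and Hm629797, in the phosphorylase kinase gene Phkb, had 0.21 and 0.76 TPM. All 3 were below their hosts and higher in replicate 2.

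The last 50 bases of 4 annotated sense-intronic transcripts are given 5′ to 3′ in the transcript's direction, because these models differ in carrying the poly(A) hexamer. Capitals mark the hexamer AATAAA, which is present near the ends of Peg13 and Gm47920 and absent from those of Gm48302 and Gm42664.
Peg13: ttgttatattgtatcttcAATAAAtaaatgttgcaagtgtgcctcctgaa
Gm47920: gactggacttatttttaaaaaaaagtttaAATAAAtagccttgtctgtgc
Gm48302: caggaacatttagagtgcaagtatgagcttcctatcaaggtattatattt
Gm42664: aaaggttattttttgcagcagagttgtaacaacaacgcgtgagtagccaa
The hexamer was found in the last 50 bases of 81 of 368 sense-intronic transcripts (22%), 124 of 326 bidirectional transcripts (38%) and 22 of 66 sense-overlapping transcripts (33.3%). It was present in 30.6% of lincRNA, 31.4% of antisense and 21.8% of TEC transcripts. Only the letters AATAAA were searched, so that other forms of the signal were not counted.

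Sense-overlapping members were few and low. BX649560.1, which overlaps the collagen gene Col20a1, had 3.46 and 3.97 TPM, above the 0.88 and 0.36 TPM of Col20a1. Gm49216, which overlaps the ubiquitin ligase gene March6, had 1.05 and 1.32 TPM, and these 2 members were the class's only ones at 1 TPM in both libraries. Gm48286, in Mark3, had 0.73 and 1.82 TPM and Gm20712 had 0.56 and 1.64 TPM. AC157931.1 (0.80 and 1.15 TPM), AC113458.1 (0.74 and 0.83 TPM) and Gm17108 (0.22 and 0.41 TPM) were the lowest of the class with a mean count of at least 10 apart from AC165425.1. AC165425.1, within Fyco1, had 37 and 3 counts, a log2 ratio of -2.91 (-5.41 to -1.41), and 71.9% of its exonic bases lie opposite exons of another gene.

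Members were next set beside the gene that defines them (plot of member level beside its neighbour gene). Of 201 bidirectional members, 197 had a divergent neighbour within 1 kb, protein-coding in 195 cases, with a median distance between starts of 109 bases. Among them, 27 of 121 members (22.3%) were detected where the neighbour was at 1 TPM or more in both libraries, and 3 of 76 (3.95%) where it was not. Of the 169 pairs with any signal, the member was the lower of the pair in 158 (93.5%). The medians differed without pairing too, at 0.065 TPM for bidirectional members and 2.975 TPM for neighbours. No share over unrelated pairs was computed. Over the 62 pairs whose member had a mean count of at least 10, the member's median level was 11% of its neighbour's mean TPM, with quartiles of 5.36% and 24.4%. The 7 members above their neighbour were A930037H05Rik, 4632427E13Rik, Ndufb1-ps, 6330408M09Rik, 9330151L19Rik, 4933412E12Rik and Gm47962, of which the last 3 were singled out after their values were seen.

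A host gene on the same strand was found for 332 of 333 sense-intronic members, with 277 distinct hosts, and 331 members lay wholly inside it. Of members with a detected host, 72 of 177 (40.7%) were detected, against 4 of 155 (2.58%) where the host was not. The member was below its host in 255 of 277 pairs with any signal (92.1%), and over the 140 members with a mean count of at least 10 it stood at a median of 23.5% of the host, with quartiles of 11.3% and 42.5%. Here too the medians differed without pairing, at 0.16 TPM for members and 1.73 TPM for hosts. Sense-overlapping members were below their host in 9 of 14 pairs with any signal (64.3%).

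Spearman's rho between the TPM of member and partner, given as a description across genes, was 0.61 over 197 bidirectional pairs and 0.70 over 332 sense-intronic pairs. Over members with a mean count of at least 10 it was 0.13 (62 pairs) and 0.57 (140 pairs). The points of 1 comparison share libraries and depth, and sense-intronic points also share hosts. Within sense-intronic members of that count, level as a percent of the host had a rho of -0.31 with distance from the host's start.

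**Figure D3:**
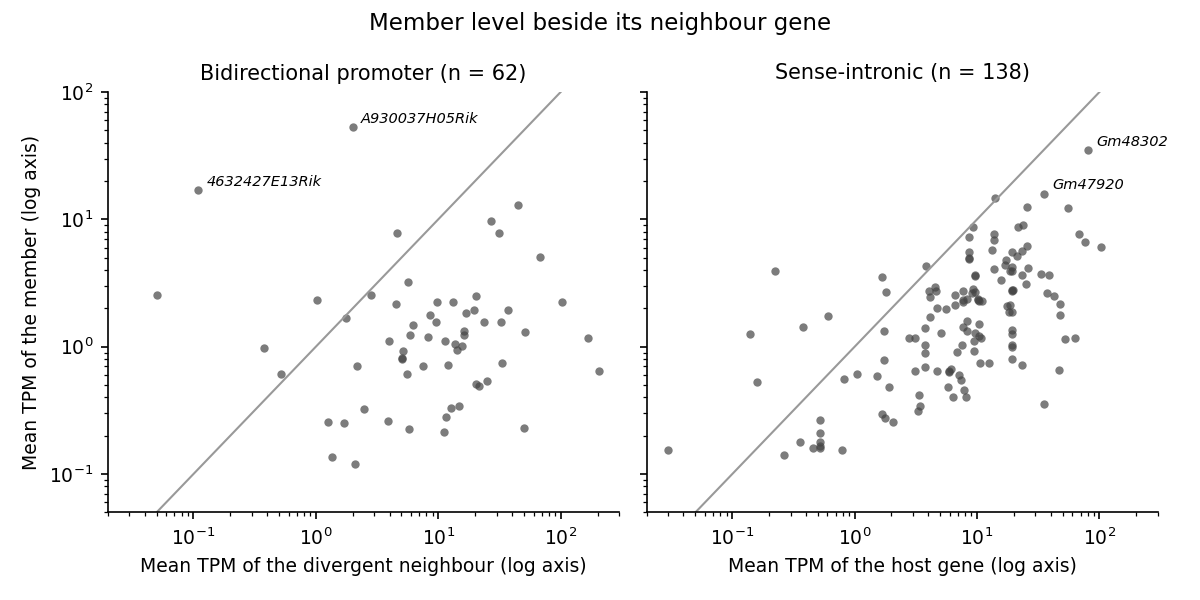
Mean TPM of each member (vertical, log axis) against mean TPM of its divergent neighbour or host gene (horizontal, log axis), for members with a mean count of at least 10 and a partner above 0; the line marks equal levels. Most points lie below the line in both panels, and A930037H05Rik and 4632427E13Rik lie far above it.

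Hosts with several intronic members gave a view within single genes. In all, 31 hosts held 2 or more members, 86 members together, led by Magi3 with 11, Cdk14 with 7 and Frmd4a with 6, and by Man1a2 and Rap1a with 4 each. These hosts were picked after values were seen. In Rap1a, a small GTPase of integrin adhesion at 7.60 and 9.60 TPM, Gm43331 had 2.89 and 7.12 TPM, Gm43330 had 3.49 and 7.50 TPM, Gm43329 had 2.95 and 6.90 TPM and Gm43328 had 4.86 and 9.63 TPM. All 4 lay close together, below the host in replicate 1 and near it in replicate 2.

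In the cyclin-dependent kinase gene Cdk14, at 18.23 and 20.55 TPM, the 7 members ranged more widely. Gm43727 had 2.91 and 5.48 TPM and Gm43728 had 2.70 and 5.22 TPM, and start 113310 and 108689 bases into the host, while Gm43577 had 0.66 and 0.95 TPM at 262398 bases. Gm43111, at 550046 bases, again had 2.22 and 3.22 TPM, so that level did not follow distance in a simple order. In the Golgi mannosidase gene Man1a2, at 3.82 and 3.74 TPM, the 4 members ran from 0.35 TPM for Gm43466 to 0.91 TPM for Gm43462 in replicate 1 and from 1.04 to 1.89 TPM for the same 2 members in replicate 2. None of the 11 members in Magi3, a scaffold protein gene at 0.39 and 0.65 TPM, was detected, and none of the 6 in Frmd4a reached a mean count of 10.

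**Figure D4:**
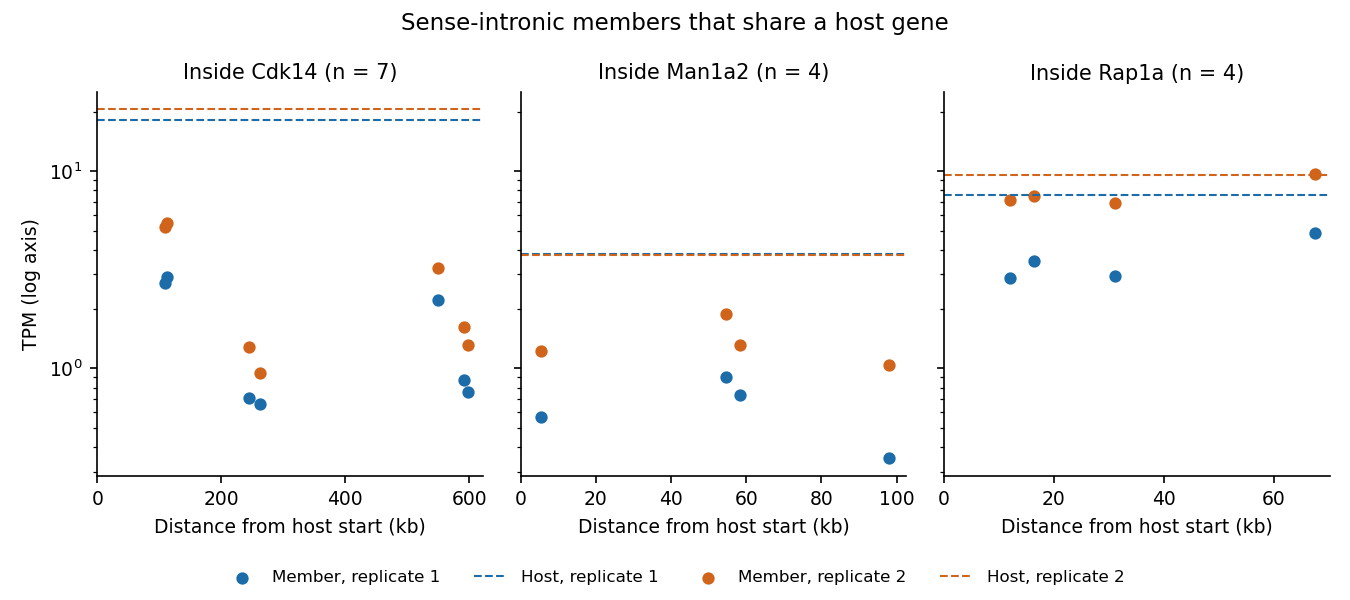
TPM (log axis) of each sense-intronic member inside Cdk14, Man1a2 and Rap1a against its distance in kb from the start of the host, in blue for replicate 1 and orange for replicate 2; dashed lines are the host's TPM. Every member is higher in replicate 2 in TPM, and the members of Rap1a lie closest to their host.

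The replicates differed in a way that followed member class (plot of replicate ratio by class). This log2 ratio, from TMM-scaled counts and taken where the mean count reached 10, had a median of 0.66 over 140 sense-intronic members, with 113 above 0. It was -0.07 over 63 bidirectional members, 0.11 over 8 sense-overlapping members, -0.05 over 11368 protein-coding genes and 0.01 over all 14831 genes tested. TEC genes, at 0.65, were close to the sense-intronic value, while lincRNA and antisense genes had medians of 0.08 and 0.23. A log2 ratio above 1 was found for 31 sense-intronic members (22.1%) and 3 bidirectional members (4.76%), against 7.52% of all genes tested, and 1 below -1 for 3 (2.14%) and 8 (12.7%), against 5.85%. With 2 libraries of 1 group, of unlike starting amount and depth, replicate and these differences cannot be told apart.

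The hosts of sense-intronic members had a median ratio near 0. Over 136 pairs in which member and host both had a mean count of at least 10, the median was 0.66 for members and -0.07 for hosts, and the member's ratio was above its host's in 117. Retained-intron transcripts of all genes had a median of 0.11 and protein-coding transcripts of -0.19. For bidirectional members the ratio was above the neighbour's in 33 of 61 pairs, with medians of -0.07 and -0.16. Leaving out members whose exons overlap those of another gene, an alternative chosen after seeing the data, gave 0.66 over 126 sense-intronic and 0.03 over 32 bidirectional members.

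The largest ratios among members with a mean count of at least 20 came from small counts. Gm37062, in the translesion polymerase gene Rev1, had 14 and 46 counts and a log2 ratio of 2.23 (1.39 to 3.25). Gm44190, in the ciliary trafficking gene Tulp3, had 10 and 32 counts and a ratio of 2.17 (1.18 to 3.42). CT010502.2, in the kinase gene Pdpk1, had 16 and 39 counts and a ratio of 1.81 (0.97 to 2.78), and Gm43560, in the heparan sulfate sulfotransferase gene Hs2st1, had 13 and 27 counts and a ratio of 1.57 (0.61 to 2.69). All 4 were higher in replicate 2, with wide intervals. By the second quantification their ratios were lower, at 1.61, 1.42, 0.56 and 1.40 in that order, so that CT010502.2 was no longer above 1. AC157784.1, in Ccbe1, went the other way, with 67 and 14 counts and a ratio of -1.67 (-2.65 to -0.86). Among members of high level, B230216N24Rik had a ratio of 1.39 (1.26 to 1.52) and Gm47664 of 1.11 (0.88 to 1.34).

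**Figure D5:**
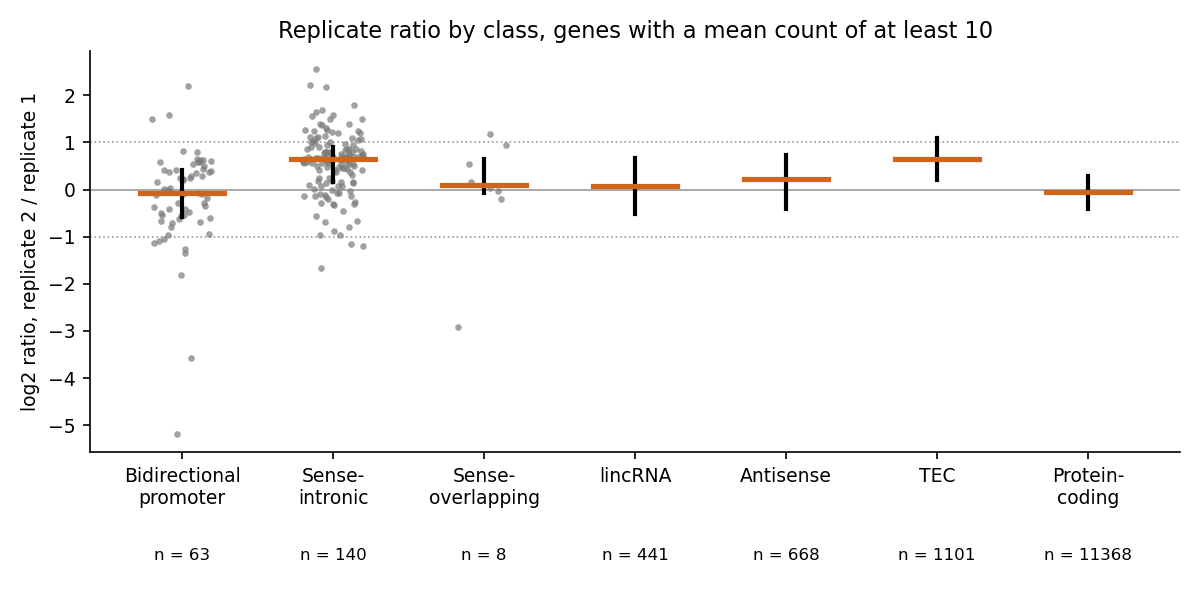
Log2 ratio, replicate 2 to replicate 1, by class, where the mean count reached 10. Grey points are single members, black bars the quartiles and orange lines the medians; other classes are drawn by quartiles and median only. The lowest bidirectional point is Gm47126, whose 0 counts in replicate 2 make its place depend on the prior count. The sense-intronic median of 0.66 lies above the bidirectional median of -0.07 and near the TEC median of 0.65.

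The second quantification gave partly other members. By the same rule 31 bidirectional, 100 sense-intronic and 5 sense-overlapping members were detected, 23.9% of members beside 21.5% of all genes. Of the 568, 78 were detected by both quantifications, 30 by the first only and 58 by the second only. Over all 55536 genes these numbers were 9118, 1222 and 2845. All 185 members with 10 or more counts in both libraries of the first quantification (32.6%, beside 25.3% of all genes) also had them in the second. There 346 members did (60.9%, beside 40.7% of all genes). A further 57 members had 0 counts in both libraries of the first and at least 10 in both of the second. That was 10% of members, beside 8.53% of all genes. Median replicate ratios in the second quantification were 0.41 over 228 sense-intronic and 0.09 over 127 bidirectional members.

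The widest gaps between the quantifications were sense-intronic. Gm47031 had 7 and 1 counts in the first and 5850 and 6247 in the second, and 90.6% of its 31-base words also occur in transcripts of other genes. Gm15535 had 5 and 3 counts against 475 and 704, with 13.6% of its words shared. CT571247.2, in Dennd1c, had 0 counts in both libraries against 80 and 47, and Gm38163, in P4htm, had 0 in both against 86 and 349, with 0.529% and 4.20% shared. All 4 were high in the second quantification alone. In the other direction the widest gap was that of Gm47126, at 6.67 and 0 TPM in the first and 0.607 and 0 TPM in the second. 4632427E13Rik had 13.13 and 20.88 TPM in the first and 5.14 and 11.3 TPM in the second. TPM of the 2 quantifications is not on the same base. Genes other than protein-coding and long non-coding ones held 86.3% and 76.3% of all TPM in the second (replicates 1 and 2). In the first they held 75.3% and 66%. The same TPM is thus an unlike threshold in the 2, and the part of this in the gaps was not tested. Over the 57 members with 0 counts in the first and at least 10 in the second, the median share of such words was 2.27%, against 0.215% over the 211 members with a mean count of at least 10, and the part of shared sequence in these gaps was not tested.

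Opposite-strand exons touched 31 of the 63 bidirectional members with a mean count of at least 10 and 10 of the 140 sense-intronic ones. Of the 211 members with that count, 162 overlapped no exon of another gene, and 82 of those 162 were detected. These numbers were not set beside all genes with that count, so nothing about members is read from them.

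Macrophage identity and the machinery that limits such transcripts were read from 2 sets of lists. All 10 macrophage markers were at 1 TPM or more in each library and had a median of 149 TPM, while none of the markers of T cells, B cells, neutrophils, erythroid cells or stromal and endothelial cells reached it, and T-cell markers at 0 in both numbered 3 of 5. Of 28 genes for the nuclear exosome and its adaptors, the Integrator complex, the U1 snRNP proteins, cleavage and termination and cap binding, 27 were at 1 TPM or more in each library, and their median was 5.91 TPM. The exosome catalytic subunits Dis3 (1.30 and 2.89 TPM) and Exosc10 (7.71 and 8.86 TPM) were present, as were the adaptor Zfc3h1 (34.43 and 52.94 TPM), the terminator Pcf11 (37.26 and 28.37 TPM) and the U1 protein Snrnp70 (47.28 and 44.31 TPM). Exosc4, at 0.91 and 1.08 TPM, was the 1 gene under the threshold. These are RNA levels in 1 condition, and decay of the members was not measured.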

How the data were processed

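Both libraries are total RNA from the nucleoplasmic fraction. The authors' deposited tables give RSEM expected counts and TPM per gene and per transcript, on mm10 with GENCODE M21 per the file headers, and kallisto estimated counts and TPM per transcript, summed here per gene. The deposited percent of a gene's TPM per isoform was not used. The sources used here give no aligner, versions or strand of counting. Rows that name no gene were left out (0.766% and 0.273% of counts). Gene counts summed to 29400104 and 17789543 in the first quantification and 39148298 and 31973373 in the second.

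Counts were rounded, scaled with edgeR 4.0.16 TMM factors (0.944 and 1.06) from genes whose mean count reached 10, and compared with a prior count of 0.5. Ratio intervals are Clopper-Pearson at 95% and cover counting error only. The scripts were tested on simulated data. With 1 group, no test was made. Neighbours came from GENCODE coordinates and windows from RefSeq GRCm38.p6. The stretch between paired starts could not be cut without a genome, and neighbours' windows were used. Named members are the 8 of highest mean TPM per class, those with names of their own, the 4 largest ratios each way at a mean count of at least 20, and the 4 largest gaps between quantifications each way, 41 in all. Members and lists were chosen with earlier results of these data known. Python 3.11.15, pandas 2.3.3 and R 4.3.3 were used.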

Additional observations from a re-analysis of the deposited data

How the results depend on the processing

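No paired analysis was possible because the 2 libraries form 1 group. The cause was not tested for any shift given here. Detected members at 0.5 TPM numbered 46 bidirectional and 6 sense-overlapping, at 5 TPM 6 bidirectional, 11 sense-intronic and 0 sense-overlapping, by the second quantification 5 sense-overlapping, and with rescaled TPM 52, 131 and 7. Leaving out 1 replicate gave 35 to 37 bidirectional, 77 to 110 sense-intronic and 2 to 5 sense-overlapping members. Median levels for bidirectional and sense-intronic members were 0.258 and 0.674 TPM by the second quantification (sense-overlapping 0.159), 0.230 and 0.529 with rescaled TPM, and 1.18 and 1.82 over members with a mean count of at least 10 (sense-overlapping 1.04), where fewer genes entered. The bidirectional median without either replicate was 0.05 TPM.

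Median ratios stayed within 1.5-fold of the reported ones under all 9 alternatives, a wide range beside medians of this size. The sense-intronic median ran from 0.41 by the second quantification to 0.82 under library totals. The sense-overlapping median ran from -0.03 at 1 count or more to 0.46 without exon overlap, and the bidirectional one from -0.14 at 1 count or more to 0.10 under library totals. Under library totals the medians were 0.10, 0.82 and 0.27 for bidirectional, sense-intronic and sense-overlapping members, with 0.18 for all genes. Counts of large ratios were more sensitive. Bidirectional members with a log2 ratio above 1 and below -1, in that order, numbered 19 and 29 at 1 count or more, 0 and 3 at a mean count of 20, 0 and 2 at 50, and 11 and 13 by the second quantification. Those below numbered 5 with library totals and 4 without exon overlap. For sense-intronic members they numbered 64 and 23 at 1 count or more and 13 and 0 at a mean count of 50, with 5 below under DESeq2 1.42.0 size factors and 6 below by the second quantification. For sense-overlapping members there were 2 above with library totals, 2 below at 1 count or more, 0 and 0 at a mean count of 50, 0 above by the second quantification and 0 below without exon overlap.

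Members detected by both quantifications numbered 12 at 5 TPM, 185 at 10 counts and 84 to 136 with 1 replicate left out. Sense-overlapping members below their host numbered 14 by the second quantification. Of the 132 values under an alternative setting for these results, 86 were within 1.5-fold or the spread of the reported ones. Median ratios near 0 did change sign. The bidirectional median of -0.07 was 0.10 under library totals, and the sense-overlapping median of 0.11 was -0.03 at 1 count or more. For single named members, 83 of 312 values moved: 39 of 41 TPM levels with rescaled TPM, 22 of 41 by the second quantification, and 9 and 13 of 37 ratios with library totals and by the second quantification. Among them, mean TPM by the second quantification was 28.3 for A930037H05Rik and 17.2 for Gm48302.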
